A study of Rattus norvegicus with 6 samples.

Results

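Hox genes, the homeobox genes that set position along the body axis, were followed gene by gene through lists of genes that carry a peak of H3K27me3, the trimethylated form of lysine 27 of histone H3. Members were the listed genes whose symbol names 1 of the 4 mammalian Hox clusters (a to d) followed by a paralogue number, with case ignored. They made up 29 of the 22427 gene entries named in any of 4 libraries, and 10 of the 39 mammalian Hox genes had no entry. All 29 carry the homeobox domain in the protein domain names that the lists give, which fits their symbols. The libraries came from primary cardiomyocytes of newborn Sprague Dawley rats, kept in serum-supplemented medium and exposed for 24 h to phosphate-buffered saline, the control, or to α-ketoglutarate (α-KG) at 5 mM, an intermediate of the citric acid cycle. Each treatment has 2 H3K27me3 libraries, numbered 1 and 2 in the labels, and the 2 input samples, whose labels give IgG as the antibody, were not analysed here. The lists say only whether a gene had a peak, so the height, width and place of a peak and the read depth are unknown. An unlisted gene can be free of H3K27me3 or merely too weakly marked to be called, and in a bulk preparation a mark in all cells cannot be told apart from a mark in some of them.

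H3K27me3 is laid down by Polycomb repressive complex 2 and is found on developmental genes that are kept silent. Hox clusters are textbook targets of it. Within a cluster the genes lie in the order of their paralogue numbers, and genes of low number act towards the head and those of high number towards the tail and the limb ends. Trithorax proteins such as the Kmt2a methyltransferase hold Hox genes active where they are needed, and H3K27 demethylases, which use α-KG as a cosubstrate, take the mark off. In the embryo, Hox genes of low number, Hoxb1 among them, also act in progenitors of the cardiac outflow tract.

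The stretches upstream of 4 Hox genes are shown because these genes differ in how they were listed. Hoxa13 and Hoxd13 belong to the same paralogue group, and Hoxa13 was listed in 2 libraries and Hoxd13 in all 4. Hoxc4, also in all 4, is the Hox gene next to Hoxc5, which 1 library did not list, and Hoxa11 stands for the Hoxa genes with no entry. Each run gives the 250 bases before the annotated start in RefSeq's sequence of assembly GRCr8, 5′ to 3′ on the strand of the gene, with every CG dinucleotide in capitals.
Hoxa13 (chr4:82691702-82691951, minus strand): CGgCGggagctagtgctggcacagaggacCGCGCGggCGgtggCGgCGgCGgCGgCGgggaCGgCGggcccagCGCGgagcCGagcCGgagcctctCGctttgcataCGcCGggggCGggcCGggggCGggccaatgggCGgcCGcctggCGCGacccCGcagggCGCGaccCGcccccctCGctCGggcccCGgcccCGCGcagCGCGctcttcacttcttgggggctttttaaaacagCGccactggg
Hoxd13 (chr3:79977827-79978076, plus strand): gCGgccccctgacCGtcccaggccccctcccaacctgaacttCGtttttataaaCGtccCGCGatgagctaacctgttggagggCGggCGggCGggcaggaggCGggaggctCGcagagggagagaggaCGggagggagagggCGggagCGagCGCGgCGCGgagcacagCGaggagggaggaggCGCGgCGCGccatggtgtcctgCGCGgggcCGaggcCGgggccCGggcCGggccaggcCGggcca
Hoxc4 (chr7:136048809-136049058, plus strand): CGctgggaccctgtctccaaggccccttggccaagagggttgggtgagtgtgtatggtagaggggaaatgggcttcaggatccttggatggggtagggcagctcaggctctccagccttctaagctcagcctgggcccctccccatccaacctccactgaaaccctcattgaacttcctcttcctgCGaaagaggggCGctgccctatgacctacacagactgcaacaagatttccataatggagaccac
Hoxa11 (chr4:82676802-82677051, minus strand): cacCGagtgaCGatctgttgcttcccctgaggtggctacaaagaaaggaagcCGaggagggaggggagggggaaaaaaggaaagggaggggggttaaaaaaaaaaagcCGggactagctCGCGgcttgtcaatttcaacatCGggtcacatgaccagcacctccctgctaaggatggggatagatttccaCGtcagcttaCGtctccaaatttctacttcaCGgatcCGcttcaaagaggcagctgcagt

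These stretches hold 39 CG dinucleotides for Hoxa13, 30 for Hoxd13, 11 for Hoxa11 and 3 for Hoxc4. Among other windows of the family, those of genes in all 4 libraries hold from 6 (Hoxb1) to 38 (Hoxd8). Those of genes with no entry hold from 6 (Hoxa2) to 32 (Hoxa4), so the ranges overlap. Over the 33469 promoter windows of the table, cut to the same 250 bases, 92.2% hold at least 1 CG, 16.7% hold at least 20, and the median is 5.0. The core of many homeodomain binding sites, TAAT on either strand, occurs once in the Hoxc4 stretch and in none of the other 3, and 57.0% of all windows hold it. Windows were at hand for 20 of the 39 Hox genes, 11 of them with an entry, so a check of CG content against listing over the whole family is void. The lists name rn6 as their build, the windows are of GRCr8, and whether a peak covered any of these bases is unknown.

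Most Hox entries were listed in every library. In all 4 libraries were 26 of 29 entries (89.7%), where 62.8% of all entries were. The other 3 entries were Hoxa13, in 2 libraries, and Hoxc5 and Hoxc9, in 3 each. Of the 196 entries with a homeobox domain outside Hox, 170 (86.7%) were in all 4, so the Hox share lies near that of the wider family. These shares are descriptions without a test.

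**Figure D1:**
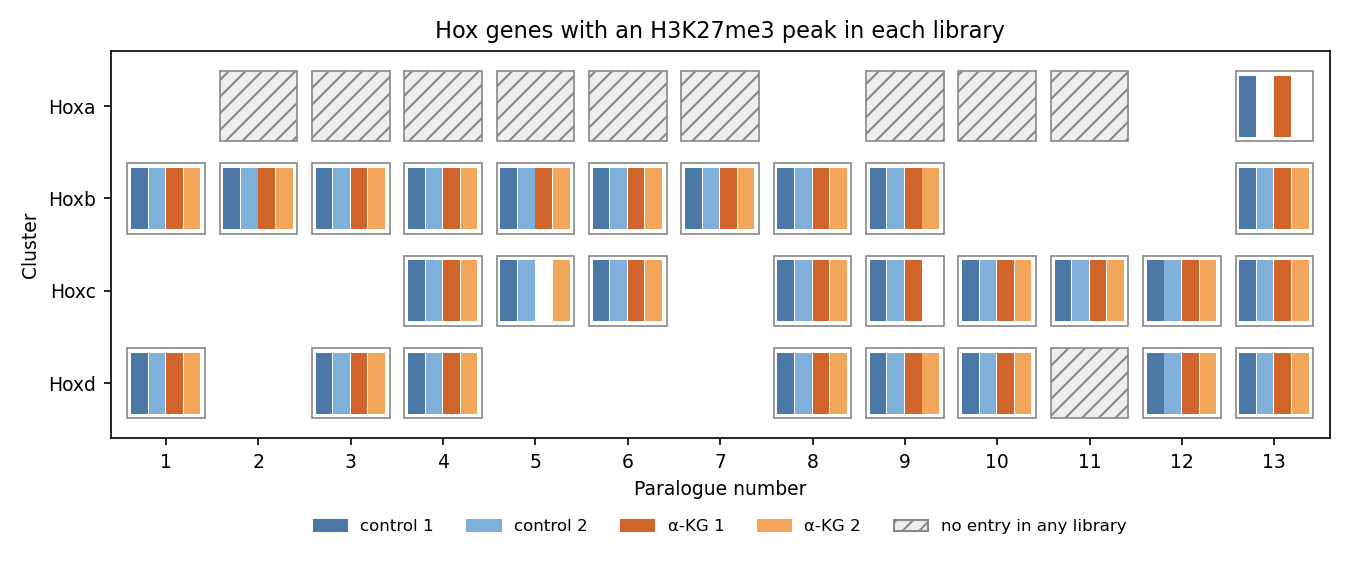
The grid shows mammalian Hox genes (1 is not drawn) by cluster (rows) and paralogue number (columns), with a coloured bar for each library that listed the gene and hatching where a gene had no entry in any library. Hoxb is filled throughout, Hoxc5, Hoxc9 and Hoxa13 each lack bars, and 9 Hoxa genes and Hoxd11 are hatched.

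The Hoxb cluster was listed without a gap. All 10 of its genes were in all 4 libraries, from Hoxb1, which patterns the hindbrain, through Hoxb4, a regulator of blood stem cells, to Hoxb13, which acts in the tail and the prostate. The 8 entries of the Hoxd cluster were also in all 4. They run from Hoxd1 to Hoxd13, which shapes the digits, and Hoxd11 was the only gene of that cluster with no entry.

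In the Hoxc cluster all 9 genes had an entry and 7 were in all 4 libraries. These were Hoxc4, Hoxc6, Hoxc8, Hoxc10, Hoxc11, Hoxc12 and Hoxc13, a gene of hair and nail growth. Each control listed 9 of 9 Hoxc genes, and each α-KG library 8 of 9. The missing gene differed between the α-KG libraries. Hoxc5 (ENSRNOG00000016598), known for its part in phrenic motor neurons, was listed in control 1, control 2 and α-KG 2 and not in α-KG 1. Hoxc9 (ENSRNOG00000016199), which gives motor neurons of the thoracic spinal cord their identity, was listed in control 1, control 2 and α-KG 1 and not in α-KG 2. Of all entries in the other 3 libraries, 3.82% were missing from α-KG 1 and 5.71% from α-KG 2. In gene order, the next Hox genes on either side of Hoxc5 (Hoxc4 and Hoxc6) and of Hoxc9 (Hoxc8 and Hoxc10) were in all 4.

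The Hoxa cluster was the exception in coverage. Of its 11 genes, 9 had no entry in any library. Hoxa13 (ENSRNOG00000007928), which acts in the limb ends and the urogenital tract, was in control 1 and α-KG 1 and in neither control 2 nor α-KG 2, so its listing divided by replicate number and not by treatment. That pattern, listed in both replicate 1 libraries and neither replicate 2 library, held for 1.52% of the entries in both replicate 1 libraries. The replicate 2 libraries were the longer list in each treatment, at 18442 and 19181 genes against 17245 and 18120.

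The Hoxa genes without an entry, which run from Hoxa2 to Hoxa11, lie next to each other. With Hoxa3l1, a further gene between them in the RefSeq order, they form a run of 10 named protein-coding genes with no entry that ends at Hoxa13. The next gene after Hoxa13, Evx1, an even-skipped homeobox gene, had none either. Of all 20950 named protein-coding RefSeq genes, 77.4% had an entry under a current or older symbol, and of Hox genes 29 of 39 did. By cluster this was 2 of 11 Hoxa, 10 of 10 Hoxb, 9 of 9 Hoxc and 8 of 9 Hoxd genes. Older symbols added 0 Hox entries. Whether the gene annotation behind the lists held these 10 genes under a symbol is not given in the sources used here, so they are not counted as unmarked.

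The 3 incompletely listed entries had middle or high paralogue numbers, as most Hox entries do. So few entries cannot show a trend along the clusters. The counts below stand beside 89.7% of Hox entries and 62.8% of all entries in every library. Hox genes numbered 1 to 3, which act furthest towards the head, had 6 entries, all of them in every library. A further 2 of the 8 genes with these numbers had no entry. Genes numbered 4 to 8 had 10 of 11 entries in every library, with Hoxc5 the exception. Genes numbered 9 to 13 had 10 of 12, with Hoxc9 and Hoxa13 the exceptions. Group 13, which ends each cluster, had Hoxb13, Hoxc13 and Hoxd13 in all 4 libraries and Hoxa13 in 2. Group 9 had Hoxb9 and Hoxd9 in all 4 and Hoxc9 in 3, and group 5 had Hoxb5 in all 4 and Hoxc5 in 3. Each of the 3 incompletely listed genes thus had at least 1 paralogue of the same number that was listed throughout.

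The comparison of treatments asks whether α-KG changed which Hox genes carried the mark. Control 1 listed 29 of the 29 entries, control 2 28, α-KG 1 28 and α-KG 2 27. The groups overlap at 28. Control libraries averaged 28.5 ± 0.707 entries and α-KG libraries 27.5 ± 0.707 (SD, n = 2 per group), a difference of -1.0 entries. This difference was -0.5 without control 1 or without α-KG 2 and -1.5 without control 2 or without α-KG 1. In the same order the libraries listed 76.9%, 82.2%, 80.8% and 85.5% of all entries. Control 1, the shortest list, thus held every Hox entry, and α-KG 2, the longest list, held the fewest. Over all genes α-KG exceeded control by 807 (18650.5 ± 750 against 17843.5 ± 846, SD, n = 2 per group; exact two-sided permutation p = 0.667, and the smallest p that 2 against 2 libraries allow is 0.333). That difference shrank to 208.5 when control 1 was left out and to 276.5 when α-KG 2 was, and grew to 1405.5 when control 2 was left out and to 1337.5 when α-KG 1 was. Homeobox genes outside Hox were listed in 181, 182, 184 and 188 of 196 cases in that order, so both α-KG libraries lay above both controls there. The exact two-sided permutation p for that set was 0.333, the smallest possible here, so it cannot show an effect of treatment. The labels do not say that replicates came from separate cultures, so the spread between them may be technical.

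**Figure D2:**
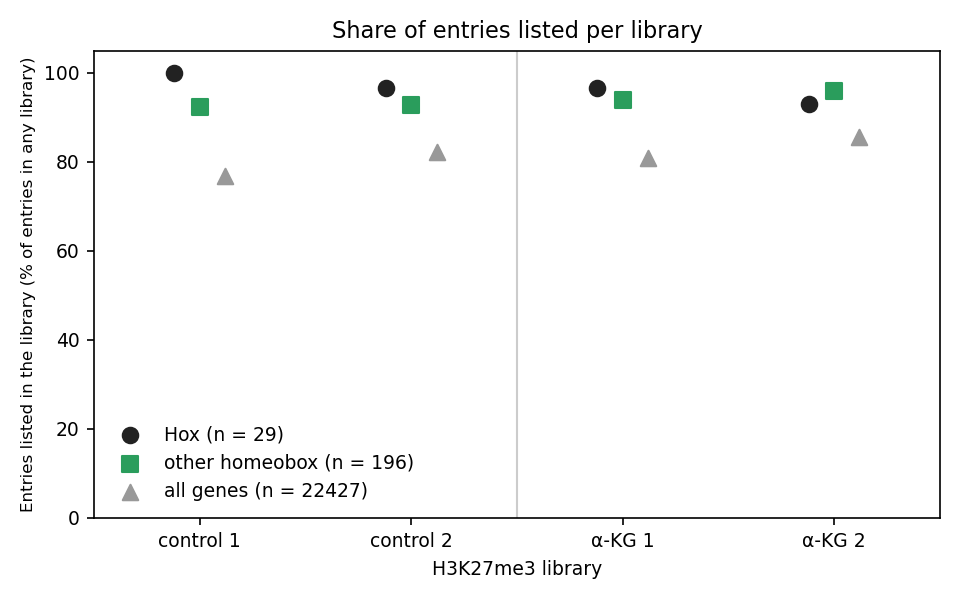
Points give the percentage of entries listed in each H3K27me3 library (x axis) for the 29 Hox entries, the 196 other homeobox entries and all 22427 entries. The share of all entries is lowest in control 1 (76.9%) and highest in α-KG 2 (85.5%), whereas the Hox share is 100% in control 1 and 93.1% in α-KG 2.

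Loss of the mark was counted where both controls and neither α-KG library listed a gene, and gain where the reverse held. Of the 28 Hox entries in both controls, 0 were lost, where 3.22% of all entries in both controls were. Of the 26 Hox entries in both α-KG libraries, 0 were gained, where 4.48% of all such entries were. At those overall shares, sets of this size would hold 0.9 lost and 1.2 gained entries, so counts of 0 cannot show that Hox genes were spared. Among homeobox entries outside Hox, 0 of the 175 in both controls were lost. Of the 177 in both α-KG libraries, 1.13% were gained. Leaving out α-KG 1 made Hoxc9 a lost entry, and leaving out α-KG 2 did so for Hoxc5. In those settings 8.55% and 6.72% of all entries in both controls were lost.

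Gene length is given beside the listing because Hox genes are short and listing moved with length. RefSeq gives the 29 Hox entries a median gene length of 2678 bp, from 1122 bp for Hoxd12 to 37923 bp for Hoxc6, against a median of 21990 bp for the other named entries matched to RefSeq. Between 1000 and 5000 bp, 19 of 22 Hox entries were in all 4 libraries, and 53.9% of the 2028 other entries of that length were. Among entries over 100000 bp the share was 84.1%. Hoxa13 (2136 bp), Hoxc9 (2678 bp) and Hoxc5 (3423 bp) fall within the range of Hox genes listed throughout, among which Hoxd12, Hoxc12 (1599 bp) and Hoxb8 (1752 bp) are shorter than all 3. These are lengths in GRCr8, introns included.

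**Figure D3:**
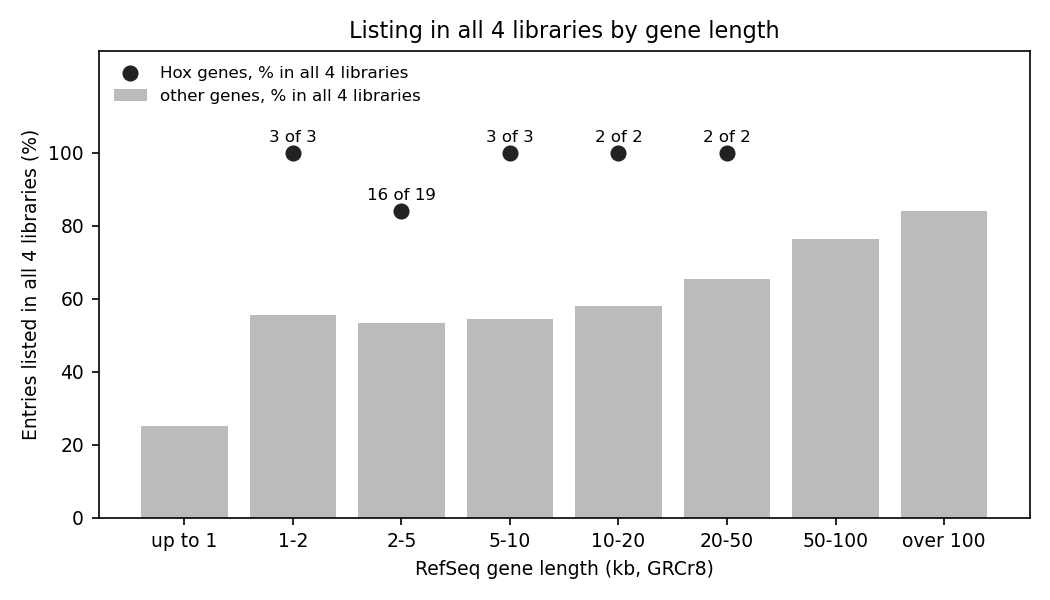
Bars give the percentage of other named entries that were in all 4 libraries by RefSeq gene length in kb, and points give the same for Hox entries with their counts. The bars rise from 25.1% up to 1 kb to 84.1% over 100 kb, and the Hox points lie above the bar in each of the 5 classes that hold Hox genes.

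Genes beside the clusters were taken from the RefSeq gene order, 5 named protein-coding genes on each side, a choice made after the data were seen. Of these 40 genes 36 had an entry, beside 77.4% of all named protein-coding genes, and 27 of the 36 were in all 4 libraries, beside 62.8% of all entries. Around Hoxd 9 of 10 entries were in all 4, all but Atf2, which was listed in α-KG 2 alone, among them Evx2, the even-skipped homeobox gene at the cluster's end, and Mtx2, a mitochondrial outer membrane protein gene. Around Hoxb it was 8 of 10, including the nearest genes on each side, Ttll6 and Skap1. Atp5mc1 was missing from control 1 and α-KG 1, and Nfe2l1 from control 1. Around Hoxa it was 7 of 8, including Skap2 before the cluster and Hibadh past Evx1, and Hnrnpa2b1 was listed in α-KG 2 alone. Listing in α-KG 2 alone, the longest list, held for 6.96% of all entries.

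The flanks of Hoxc had the lowest count of the 4 clusters, with 3 of 8 entries (Npff, Calcoco1 and Smug1) in all 4 libraries, beside 62.8% of all entries. Cbx5, which encodes the heterochromatin protein HP1α, and Nfe2, a factor of blood cell formation, were listed in α-KG 2 alone. Of all entries, 6.96% had that pattern. Copz1, a subunit of the coatomer, was listed in control 2 and α-KG 2. Atf7 and Atp5mc2 were listed in control 1, control 2 and α-KG 2 and not in α-KG 1, as Hoxc5 was. When all gene kinds counted as neighbours, long noncoding RNAs and pseudogenes filled most places, and 11 of 40 had an entry, 9 of them in all 4.

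**Figure D4:**
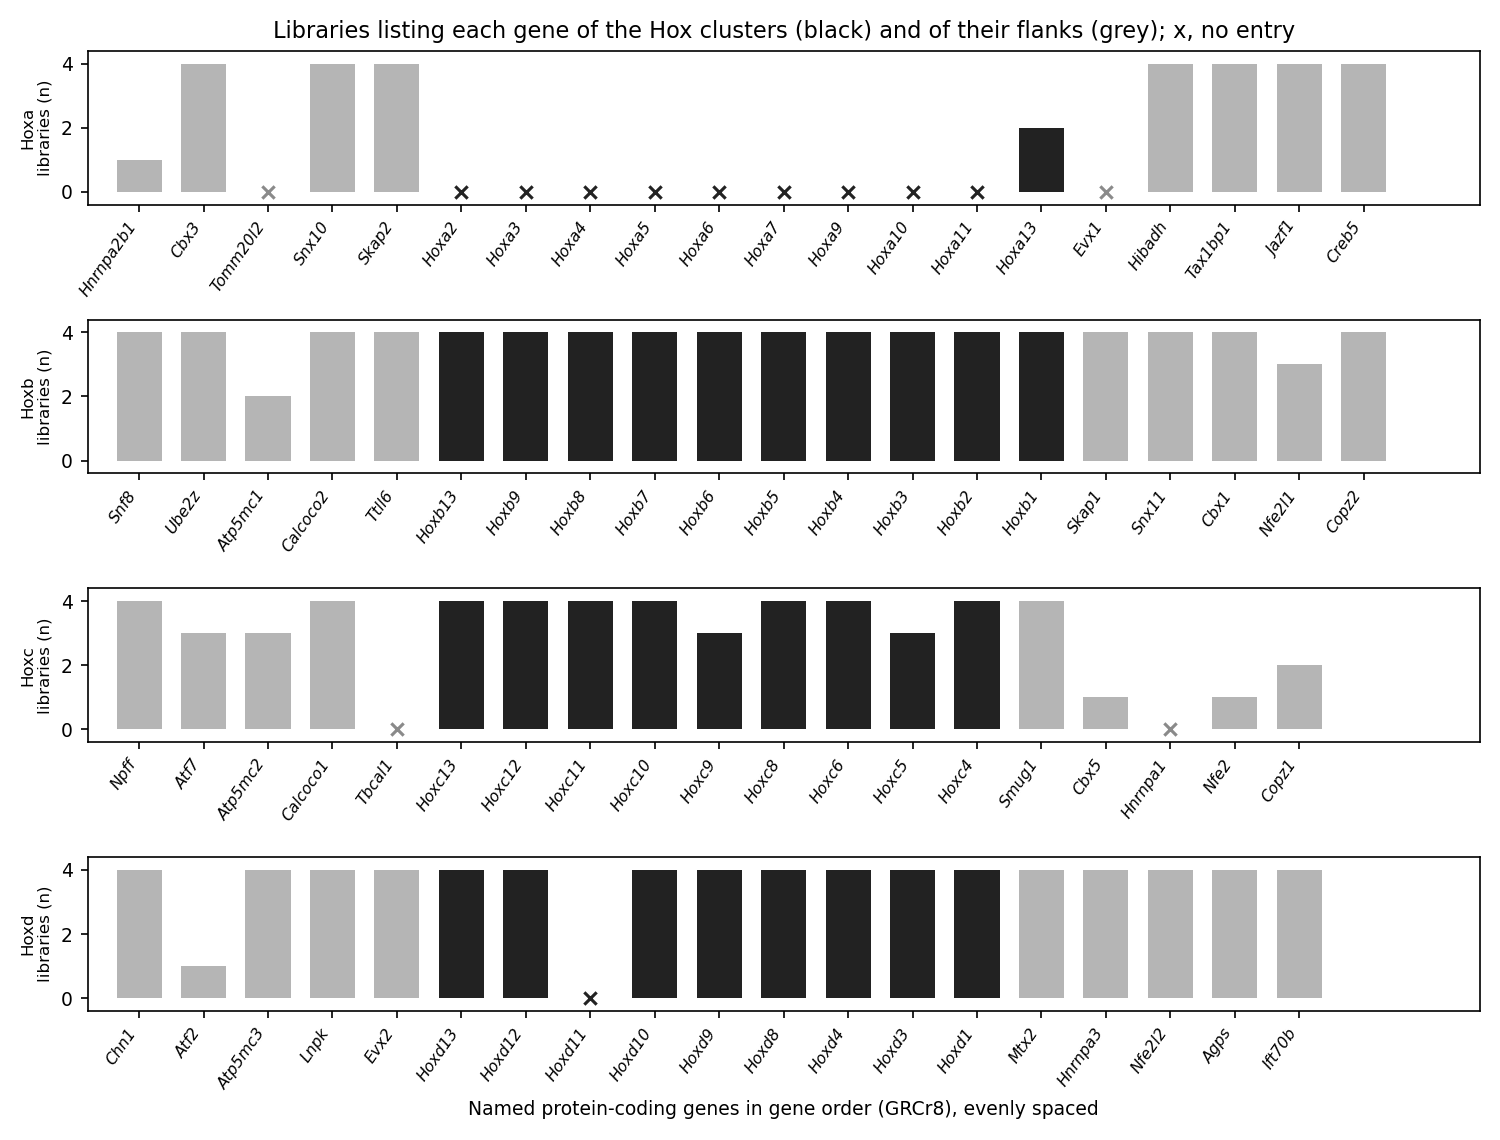
Bars count the libraries (0 to 4) that listed each gene of the 4 clusters (black) and of the 5 named protein-coding genes on each side (grey), in GRCr8 gene order and evenly spaced. Crosses mark genes with no entry, and Hoxa3l1 and 1 Hox gene are not drawn. The bars of Hoxb stand at 4 throughout, the Hoxa row has crosses from Hoxa2 to Hoxa11, and Cbx5 and Nfe2 beside Hoxc stand at 1.

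The domain names that accompany each gene were not used to choose the members. The label for a homeobox protein of the antennapedia type was given to 13 Hox entries, of which 12 were in all 4 libraries and Hoxc5 was not. Outside Hox it was given to 2 entries, the pancreatic homeobox gene Pdx1, in all 4 libraries, and a gene without a symbol. The N-terminal domain labelled Hox1A3 was on 4 entries, the group 13 genes Hoxa13, Hoxb13, Hoxc13 and Hoxd13. The Hox9 activation domain was on Hoxb9, in all 4 libraries, and Hoxc9, in 3.

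Genes that work with or upstream of Hox were followed in the same way, and their counts stand beside the 62.8% of all entries and the 86.7% of other homeobox entries that were in all 4 libraries. Among the cofactors of the TALE homeobox class, which bind DNA beside Hox proteins, 8 of 9 were in all 4 libraries (Meis1, Meis2, Meis3 and Pknox1 among them). Pknox2 was missing from α-KG 1. The caudal genes Cdx1, Cdx2 and Cdx4, which switch on Hox genes of the trunk, and the ParaHox genes Gsx1, Gsx2 and Pdx1 were in all 4, 6 of 6. Of the 11 homeobox genes that end the clusters or are close relatives of Hox, 9 had an entry, and Evx1 and Gbx1 had none. They gave 10 entries, as 1 symbol stood under separate Ensembl IDs. All 10 were in all 4, Mnx1, Evx2 and the 6 Dlx genes among them.

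In the retinoic acid pathway, which induces Hox genes of low number, 14 of 16 entries were in all 4 libraries. Aldh1a1, which makes retinoic acid, was missing from α-KG 2, and Stra6, the receptor that takes up retinol, was listed in control 2 alone. The receptor genes Rara, Rarb and Rarg and the degrading enzymes Cyp26a1, Cyp26b1 and Cyp26c1 were in all 4. Of the genes that time axial growth, 6 of 8 were in all 4, Gdf11 and Wnt3a among them. Mstn, which encodes myostatin, was listed in control 1 and α-KG 1, as Hoxa13 was, and the nuclear receptor gene Nr6a1 was missing from α-KG 2.

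Of 20 chromatin regulators of Hox genes, 19 had an entry. In all 4 libraries were 18 of the 19, among them Ezh2, Eed and Suz12 of Polycomb repressive complex 2. Kmt2a and the demethylase genes Kdm6a and Kdm6b were also among the 18. The exception was Men1, which encodes menin, the protein that brings Kmt2a to Hox genes. Men1 was listed in α-KG 1 and α-KG 2 and in neither control, the pattern of gain. It was the only entry of these 6 lists that was gained, and 0 were lost, beside the 4.48% and 3.22% over all genes.

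The identity of the cells cannot be read from these lists, since a peak of a repressive mark at a marker gene does not show which cells carried it. Of the 7 cardiomyocyte marker entries, 3 (Tnnt2, Actc1 and Actn2) were in all 4 libraries, beside 62.8% of all entries. Control 2 listed 5 of the 7 and each other library 4. The lists hold no expression values, so whether a listed gene, marker or Hox, was silent is unknown. Ryr2, the calcium release channel gene, was listed in both controls and neither α-KG library, the pattern of loss. It was 1 of 4 cardiomyocyte entries in both controls and the only lost entry among all the gene lists followed here. Of all entries in both controls 3.22% were lost, so a single lost entry does not set these markers apart. Nppa was listed in control 2 alone, Tnni3 in α-KG 1 alone and Myh7 in α-KG 2 alone, and Myh6 had no entry. Of 5 fibroblast markers 4 had an entry, of which 3 were in α-KG 1 and 4 in each other library, with Col1a1 missing. Of 4 endothelial markers 3 were in control 1 and α-KG 1 and 4 in the rest, with Tek missing. The 3 smooth muscle and pericyte markers had between 1 and 3 listed. Rgs5 was missing from control 1 and α-KG 2, and Cspg4 from control 1 and α-KG 1. Of 2 immune markers 1 had an entry, which was in all 4 libraries. The part of these cell types in the Hox listing was not tested.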

How the data were processed

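The authors deposited, for each H3K27me3 library, a list without header whose lines pair a gene that had a peak (Ensembl ID and symbol) with its protein domains. No count, score or position is given. Software named in the submitters' processing notes is CASAVA, BWA and MACS2, with no role or version, and the build is rn6. Peak thresholds, the use of an input and the rule that ties peaks to genes were not stated in those notes or labels, and read depth is unknown. Groups and replicate numbers came from the labels, and the number 2 in each group limits every comparison.

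Lists were read with Python 3.11.15, pandas 2.3.3 and numpy 2.4.6, and drawn with matplotlib 3.10.9. Entries (Ensembl IDs) were counted. For list lengths, an exact permutation test (two-sided) was run over the 4 libraries. The counting was tested on simulated data. Names, gene order, gene length and upstream sequences came from RefSeq tables of assembly GRCr8, which differs from rn6. A single RefSeq gene matched 95.0% of the 17338 named entries, and 5089 entries without a symbol were left out of length and order comparisons. Members and gene lists were chosen with earlier results of these data known. The rule named every Hox gene, and of the other lists each entry missing from at least 1 library. Some genes are not reported here. Alternatives tried were a replicate block, leave-one-out over libraries, symbols in place of entries, older symbols, named genes only and homeobox genes only.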

Additional observations from a re-analysis of the deposited data

How the results depend on the processing

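The difference in Hox entries stayed below 0 in every alternative that was run, but it rests on very few entries. Some alternatives could not change it. Older symbols added 0 Hox entries, and each Hox symbol had a single entry, so counting symbols gave the same numbers. Without 1 library at a time, the difference in Hox entries ranged from -1.5 to -0.5, entries in every library from 26 to 27, lost entries from 0 to 1 and gained entries from 0 to 0. With a replicate block the difference in Hox entries was -1.0, which by construction equals the difference of group means. In the block 1 Hox entry was lost within number 1 (Hoxc5), 1 within number 2 (Hoxc9) and 0 in both. Same-numbered libraries deviated together only weakly (r = 0.0478 across genes), and the labels do not tie the numbers to shared cultures. Over all genes, leaving out 1 library gave 904 to 1369 lost and 1109 to 2290 gained genes, by construction, as 3 libraries fix the pattern in place of 4. Within numbers 1 and 2 of the replicate block, 1698 and 2166 genes were lost and 2573 and 2905 gained. The difference in all genes ranged from 208.5 to 1405.5, and listing in every library from 14457 to 15178. Among homeobox genes outside Hox only, 170 were in every library, 0 were lost and 2 gained. This set is smaller, and its shares differed too. In every library were 86.7% of its entries, beside 62.8% of all entries. Of its 175 entries in both controls 0 were lost, beside 3.22% over all genes. Of its 177 entries in both α-KG libraries 1.13% were gained, beside 4.48%. Alternatives that need peak scores or positions were not run.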

Other observations

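The run of 10 named protein-coding genes without an entry inside the Hoxa cluster was among the longest in the RefSeq gene order. With it, 15 runs were at least as long, and 12 of them were longer. The longest, of 20 genes, lay among olfactory receptor genes between Or5g25 and Or5m9, and others among keratin-associated protein genes before Ube2g2 (12 genes) and on chromosome Y (16 genes). Gene names differ between the lists and GRCr8, so a run can also reflect renaming.

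A gene without a symbol (ENSRNOG00000047951) bore the antennapedia type label that the lists give otherwise to Hox genes and Pdx1. It was listed in α-KG 1 alone. The files pair its ID with no name, so it was not counted as a Hox gene.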
